A study of Mus musculus with 12 samples.

Results

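Birc5, Ccnb2, Cdc20 and 2810417H13Rik are genes of DNA replication and cell division, followed here in primary mouse mast cells before and after activation through the IgE receptor. They were taken by probe name from the nCounter Myeloid Innate Immunity Panel, which counts RNA molecules directly by hybridization, and make up 4 of its 734 endogenous probes. Bone marrow cells from C57BL/6 mice had been grown in IL-3 for at least 4 weeks, edited by CRISPR/Cas9 with a homology-directed template that inserts zsGreen at the target, and sorted for zsGreen. The targeted gene was either Mettl3, which encodes the catalytic subunit of the RNA m6A methyltransferase, or Kit, the receptor for stem cell factor, as the edited control. Each genotype was sampled resting and after 4 h with IgE and antigen complexes, which gave the groups c-Kit KO unstimulated, c-Kit KO stimulated, Mettl3 KO unstimulated and Mettl3 KO stimulated, with 3 libraries in each. The labels number the cultures of each group from 1 to 3, and the study describes them as independent biological replicates. A sheet of counts supplied beside the labels numbers 1 of the libraries differently, the stimulated Mettl3 KO library of replicate 3. No unedited culture was on the panel, and the sort was for the inserted reporter. The study stained sorted cells for the Mettl3 and c-Kit proteins, which the counts do not measure. All values are of RNA from whole cultures, so a smaller share of dividing cells and less RNA per dividing cell cannot be told apart.

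Cells that divide make the parts of the replication and mitosis machinery in a fixed order. Genes for replication factors are switched on as cells enter S phase, genes for mitotic cyclins, kinetochore proteins and mitotic regulators follow in G2, and most of these RNAs and proteins are removed after division, so their levels are widely used as a readout of how many cells in a culture are cycling. Cultured bone marrow-derived mast cells keep dividing in IL-3, and crosslinking of their IgE receptor sets off degranulation and the transcription of cytokine genes.

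The 12 libraries held from 504238 to 737910 counts over the endogenous probes. Counts were divided by a factor from the geometric mean of 20 housekeeping probes, and these normalized counts are used throughout. The panel carries 8 negative control probes, and a count was taken as above background where it passed their mean plus 2 SD in the same library, a limit that lay between 13.1 and 39.2 raw counts. Cdc20 passed it in all 12 libraries. Ccnb2 and 2810417H13Rik passed it in 6 of 6 unstimulated libraries, and Birc5 in 5 of 6. After stimulation Birc5 and Ccnb2 each passed it in 1 of 6 libraries and 2810417H13Rik in 4 of 6. The 4 genes all met the filter for testing, at least 20 counts in at least 3 libraries that left 545 probes. Birc5 reached 20 counts in only 3 of 6 stimulated libraries.

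All 8 mast cell markers, among them the protease Cpa3 as the most abundant and the IgE receptor chains Fcer1a and Ms4a2, were above background in every library. Their summed normalized count was 413161, 430180 and 332048 in replicates 1, 2 and 3 of c-Kit KO at rest, and 217518, 278152 and 166351 after stimulation. In the libraries labelled Mettl3 KO the sums were 337998, 470595 and 376599 unstimulated and 127706, 206805 and 154444 stimulated. The sum was thus lower after stimulation in each of the 6 cultures, and whether this bears on the cell cycle genes was not tested. Of markers of other cells, 0 of 6 neutrophil genes were above background in any library, at most 1 of 5 eosinophil genes, at most 1 of 6 lymphocyte genes and at most 2 of 10 macrophage genes. The eosinophil gene was Siglecf, which was above background in 6 of 6 stimulated libraries, at normalized counts of 25.4 to 132, and in 0 of 6 unstimulated libraries; whether it came from other cells or from the mast cells was not tested. The sums of these markers ran from 50.3 to 88.3 for neutrophils, from 56.4 to 175 for eosinophils, from 74.0 to 143 for lymphocytes and from 135 to 229 for macrophages. Among 4 early progenitor markers Cd34 was above background, and Flt3, Mpo and Elane were not in any library.

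Kit gave normalized counts of 1856, 2856 and 2826 in libraries labelled c-Kit KO at rest, and 1159, 1613 and 738 after stimulation. The libraries labelled Mettl3 KO gave 4057, 2533 and 2456 unstimulated and 1845, 1771 and 1550 stimulated. The genotypes overlapped in both states, and Kit was not called between them, at a log2 fold change of Mettl3 KO over c-Kit KO of 0.26 (SE 0.31, adjusted p of 0.997) at rest and 0.56 (SE 0.32, adjusted p of 0.460) after stimulation in edgeR's quasi-likelihood test. By replicate number, Kit was higher in Mettl3 KO in 3 of 3 pairs after stimulation and in 1 of 3 at rest. How the Kit probe reads an edited allele was not tested, and Mettl3 has no probe on the panel. The genotypes below are therefore those of the labels.

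2810417H13Rik, listed by RefSeq as Pclaf, encodes a small protein that binds the PCNA sliding clamp during replication and repair of DNA. Its normalized counts in the libraries labelled c-Kit KO were 207, 43.6 and 209 unstimulated in replicates 1, 2 and 3, and 78.4, 21.2 and 39.6 stimulated. In the libraries labelled Mettl3 KO they were 108, 141 and 193 unstimulated and 26.1, 40.6 and 55.5 stimulated. The stimulated count was not above background in replicate 2 of c-Kit KO, where the ratio was at least 1.29-fold, and in replicate 1 of Mettl3 KO, where it was at least 3.82-fold. Every culture was lower after stimulation than before, but in c-Kit KO the groups overlapped, because the unstimulated library of replicate 2 lay below the stimulated library of replicate 1. In Mettl3 KO they did not overlap. The group means ± SD (n = 3) were 153 ± 94.9 and 46.4 ± 29.2 in c-Kit KO and 147 ± 43.3 and 40.7 ± 14.7 in Mettl3 KO. In the quasi-likelihood test of edgeR, adjusted by Benjamini-Hochberg over the 545 probes, the log2 fold change of the counts as read was -1.73 (SE 0.60, 95% interval -3.03 to -0.42) in c-Kit KO with an adjusted p of 0.0676. It was -1.85 (SE 0.60, 95% interval -3.16 to -0.54) in Mettl3 KO with an adjusted p of 0.0348. A probe is said to be called here where its adjusted p was under 0.05. The fall was thus called in Mettl3 KO and not in c-Kit KO. With the replicate number as a block in edgeR the c-Kit KO change was -1.65 with an adjusted p of 0.0340 and was called. That call was lost when the block fit left out the library numbered differently in the sheet, the stimulated Mettl3 KO library of replicate 3, which gave -1.66 and an adjusted p of 0.0522 in edgeR. Without the unstimulated c-Kit KO library of replicate 2 edgeR's adjusted p was 0.0155, and without the stimulated c-Kit KO library of replicate 1 it was 0.0304, within a range of 0.0155 to 0.371 over 24 alternatives. The Mettl3 KO call was lost in edgeR without the unstimulated library of replicate 2 (adjusted p = 0.0635), the unstimulated library of replicate 3 (0.102), the stimulated library of replicate 1 (0.119) or the stimulated library of replicate 2 (0.0931). Its adjusted p ran from 0.00399 to 0.145 over 24 alternatives.

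Ccnb2 encodes cyclin B2, a partner of the kinase CDK1 at entry into mitosis. Its normalized counts in the libraries labelled c-Kit KO were 344, 60.8 and 290 unstimulated and 99.6, 22.2 and 19.8 stimulated. In those labelled Mettl3 KO they were 128, 166 and 292 unstimulated and 18.9, 16.0 and 20.7 stimulated. Again the stimulated c-Kit KO library of replicate 1 was the high one of its group and lay above the unstimulated library of replicate 2, and the Mettl3 KO groups lay far apart. The group means ± SD (n = 3) were 231 ± 150 and 47.2 ± 45.4 in c-Kit KO and 196 ± 86.1 and 18.5 ± 2.37 in Mettl3 KO. The log2 fold change of the counts as read was -2.30 (SE 0.71) in c-Kit KO with an adjusted p of 0.0396 in edgeR's test, and -3.39 (SE 0.75) in Mettl3 KO with an adjusted p of 0.00557. The fall was called in both genotypes and was seen in 3 of 3 cultures of each. In 5 of the 6 cultures the stimulated count was not above background, so only a lower bound of the fall can be given there. It was at least 1.79-fold in replicate 2 and at least 11.8-fold in replicate 3 of c-Kit KO, and at least 4.54-fold and 5.18-fold in replicates 1 and 2 of Mettl3 KO, with a larger bound in replicate 3. In replicate 1 of c-Kit KO, the culture with both counts above background, the level was 3.45-fold lower. The Mettl3 KO call held in edgeR without each library in turn and in each of 24 alternatives, whose adjusted p ran from 2.9e-06 to 0.0438. Scaling to the positive controls, 1 of the 24, cancels under housekeeping scaling and could not change a call. The c-Kit KO call was lost in edgeR without the unstimulated library of replicate 1 (adjusted p = 0.140) or of replicate 3 (0.110) and without the stimulated library of replicate 2 (0.116) or of replicate 3 (0.139). Its adjusted p ran from 0.00455 to 0.279 over 24 alternatives.

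Birc5 encodes survivin, a subunit of the chromosomal passenger complex that guides the attachment and separation of chromosomes and that also belongs to the inhibitor of apoptosis family. Its normalized counts in the libraries labelled c-Kit KO were 186, 25.2 and 148 unstimulated and 60.4, 8.07 and 18.3 stimulated. In those labelled Mettl3 KO they were 74.1, 116 and 146 unstimulated and 17.1, 13.5 and 24.0 stimulated. All 6 cultures were lower after stimulation, with the same overlap in c-Kit KO between the unstimulated library of replicate 2 and the stimulated library of replicate 1, and no overlap in Mettl3 KO. The group means ± SD (n = 3) were 120 ± 84.1 and 28.9 ± 27.7 in c-Kit KO and 112 ± 36.0 and 18.2 ± 5.32 in Mettl3 KO. The log2 fold change of the counts as read was -2.06 (SE 0.74) in c-Kit KO, with an adjusted p of 0.0786 in edgeR's test, and -2.60 (SE 0.77) in Mettl3 KO with an adjusted p of 0.0228. In c-Kit KO the fall was not called, while with the replicate number as a block edgeR gave -2.03 and an adjusted p of 0.0340, or 0.0488 without the stimulated Mettl3 KO library of replicate 3. It was also called in edgeR without the unstimulated c-Kit KO library of replicate 2 (adjusted p = 0.0207) or the stimulated c-Kit KO library of replicate 1 (0.0166), and over 24 alternatives the adjusted p ran from 0.0166 to 0.384. The call in Mettl3 KO was lost in edgeR without the unstimulated library of replicate 3 (adjusted p = 0.0613), the stimulated library of replicate 1 (0.0733) or the stimulated library of replicate 2 (0.0827), in a range of 0.000879 to 0.113 over 24 alternatives. Stimulated counts were above background only in replicate 1 of c-Kit KO, where the level was 3.08-fold lower, and in replicate 2 of that genotype neither count was. For the other 4 cultures the fall was at least 6.04-fold in replicate 3 of c-Kit KO and at least 2.63-fold, 3.61-fold and 4.49-fold in replicates 1, 2 and 3 of Mettl3 KO. Subtracting the mean of the negative controls from every count moved the Mettl3 KO log2 fold change to -5.45 for Birc5 and to -6.77 for Ccnb2.

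Cdc20 encodes the activator that directs the anaphase-promoting complex to its substrates at the exit from mitosis. Its normalized counts in the libraries labelled c-Kit KO were 175, 51.6 and 202 unstimulated and 81.6, 57.5 and 46.2 stimulated. In those labelled Mettl3 KO they were 107, 106 and 163 unstimulated and 84.7, 62.8 and 48.0 stimulated. In replicate 2 of c-Kit KO the stimulated count was 1.11-fold the unstimulated count. In the other 5 cultures it was lower, by 2.15-fold and 4.37-fold in replicates 1 and 3 of c-Kit KO and by 1.26-fold and 1.69-fold in replicates 1 and 2 of Mettl3 KO, with the largest ratio of that genotype in replicate 3. The Mettl3 KO groups did not overlap and the c-Kit KO groups did. The group means ± SD (n = 3) were 143 ± 80.2 and 61.8 ± 18.1 in c-Kit KO and 125 ± 32.7 and 65.1 ± 18.5 in Mettl3 KO. The log2 fold change was -1.21 (SE 0.46, 95% interval -2.22 to -0.21) in c-Kit KO with an adjusted p of 0.0883 in edgeR's test. It was -0.95 (SE 0.46, 95% interval -1.94 to 0.05) in Mettl3 KO with an adjusted p of 0.137, so Cdc20 was not called in either. Without the unstimulated c-Kit KO library of replicate 2 the c-Kit KO value was -1.61 with an adjusted p of 0.0147 in edgeR, the lowest over 24 alternatives, which reached 0.461. In Mettl3 KO the adjusted p ran from 0.0512 to 0.509 over 24 alternatives.

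**Figure D1:**
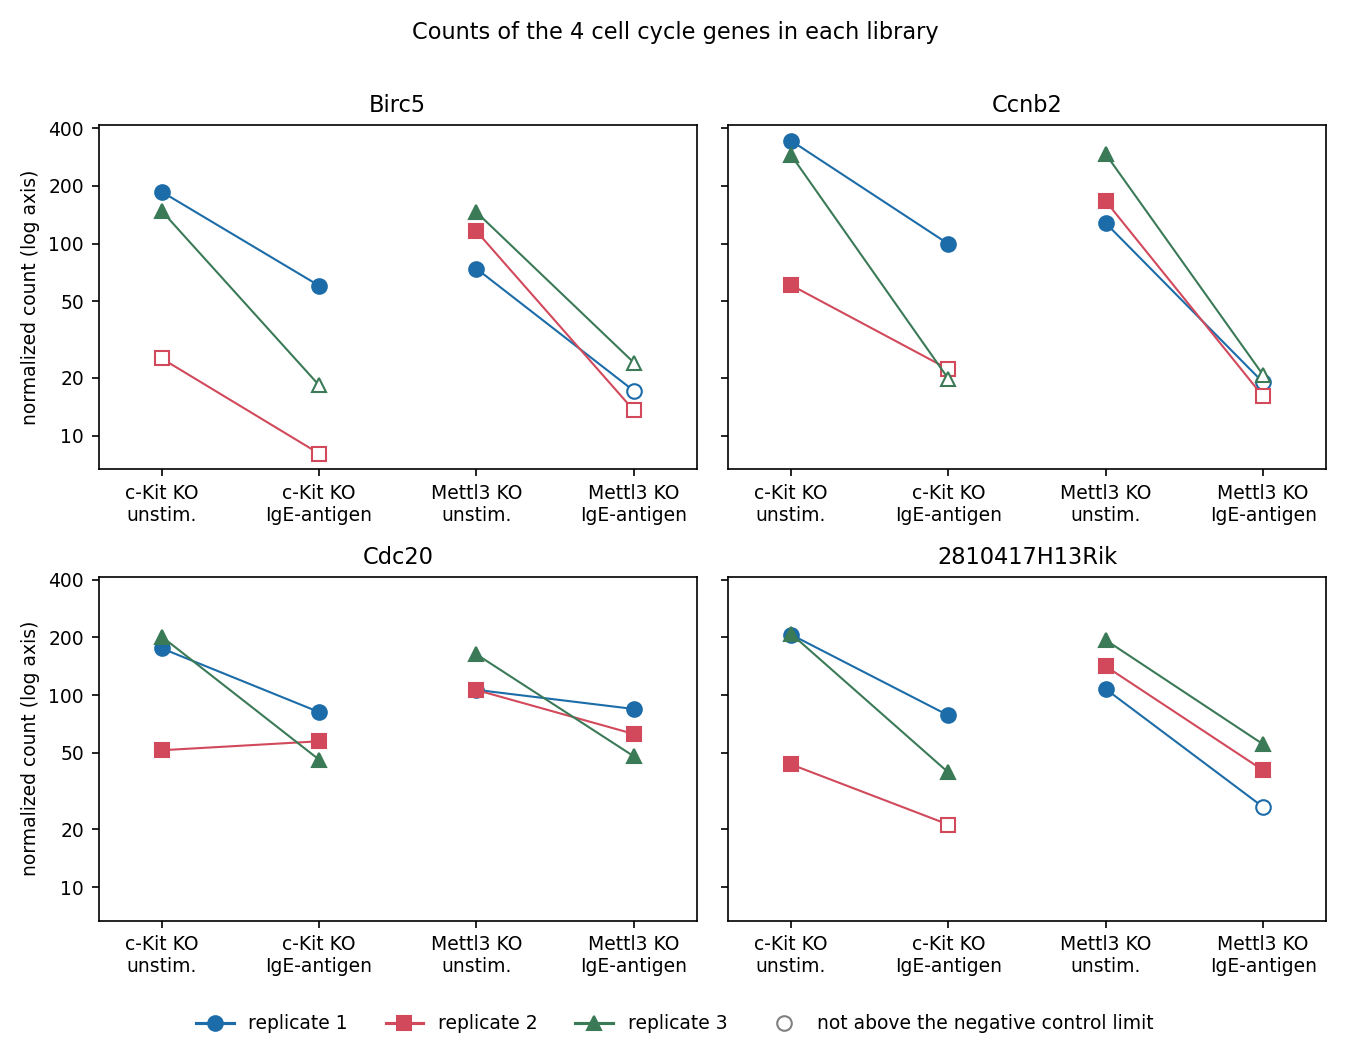
Normalized counts (log axis) of Birc5, Ccnb2, Cdc20 and 2810417H13Rik in each of the 12 libraries, with a line from the unstimulated to the stimulated library of each replicate number and genotype; open symbols are counts not above the negative control limit of that library. Of the c-Kit KO libraries, replicate 2 lies lowest of the unstimulated in each panel, at 25.2, 60.8, 51.6 and 43.6, and replicate 1 highest of the stimulated, at 60.4, 99.6, 81.6 and 78.4.

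Across the comparison in c-Kit KO, 38 of 545 probes (6.97%) were called lower after stimulation, and 1 of the 4 genes, Ccnb2, was among them. In Mettl3 KO 59 probes (10.8%) were called lower, and 3 of the 4 genes were, all but Cdc20. With the replicate number as a block edgeR called 67 probes lower in c-Kit KO and 86 in Mettl3 KO. Birc5, Ccnb2 and 2810417H13Rik were among them in both genotypes. In the block without the stimulated Mettl3 KO library of replicate 3 the counts were 70 and 79. There 2810417H13Rik was not called in c-Kit KO. All 3 stimulated libraries lay below all 3 unstimulated libraries for 84 probes (15.4%) in c-Kit KO, which included 0 of the 4 genes, and for 96 probes (17.6%) in Mettl3 KO, which included 4 of 4. The median log2 fold change of the 4 genes was -1.89 in c-Kit KO and -2.23 in Mettl3 KO, where the medians over all probes tested were -0.05 and 0.02. These medians take counts as read, and most stimulated counts of Birc5 and Ccnb2 were not above background. The methods' t-test, with limits of 0.05 on the unadjusted p and of 1.5-fold on a change in either direction, passed 124 of 545 probes in c-Kit KO. Among them were 0 of the 4 genes. In Mettl3 KO it passed 178 of 545, with 4 of 4. After Benjamini-Hochberg adjustment that test called 49 and 68 probes in either direction, with 0 of the 4 genes in c-Kit KO. In Mettl3 KO its adjusted p was 0.0330 for Birc5 and 0.0215 for Ccnb2, which were called. It was 0.0548 for 2810417H13Rik and 0.118 for Cdc20, which were not.

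Cdc20 was the gene of the 4 that could be measured in both states of every culture. With the lower bound in place of each stimulated count that was not above background, a comparison chosen after the values were seen, the ratio of the unstimulated to the stimulated count was larger for Ccnb2 and for 2810417H13Rik than for Cdc20 in 6 of 6 cultures, and for Birc5 in 5 of 5, the other culture having no count of Birc5 above background. In the 4 cultures where 2810417H13Rik was above background in both states, its ratio was smaller than the ratio or bound of Birc5 in 4 of 4 and of Ccnb2 in 4 of 4, a count made after the values were seen. Birc5 and Ccnb2 cannot be ordered against each other where both have only bounds. Over the 12 libraries, Pearson's r between log2(normalized count + 20) of the genes ran from 0.88 for Cdc20 with 2810417H13Rik to 0.99 for Birc5 with 2810417H13Rik; the libraries share the stimulation that separates them, and these values are given as a description.

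Genotype was compared at rest and after stimulation, as Mettl3 KO against c-Kit KO. With no unedited culture, an effect of losing Mettl3 and one of losing Kit cannot be told apart. In the unstimulated libraries the log2 fold change of Mettl3 KO over c-Kit KO was -0.10 (95% interval -1.62 to 1.43) for Birc5, -0.24 (-1.69 to 1.21) for Ccnb2, -0.19 (-1.17 to 0.79) for Cdc20 and -0.05 (-1.30 to 1.19) for 2810417H13Rik. The direction turned with the replicate block for 3 of them, to 0.27 for Birc5, 0.041 for Ccnb2 and 0.13 for 2810417H13Rik, and with limma for all 4. None of the 4 was called, with an adjusted p of 0.997 for each in edgeR's test. Nor was any other probe: edgeR called 0 of 545 (0%), with 7 at an unadjusted p under 0.05, and DESeq2 and limma also called 0. In the stimulated libraries the values were -0.64 (-2.30 to 1.03) for Birc5, -1.32 (-2.91 to 0.27) for Ccnb2, 0.08 (-0.92 to 1.08) for Cdc20 and -0.18 (-1.48 to 1.12) for 2810417H13Rik. Again 0 of the 4 were called by edgeR, with adjusted p from 0.435 to 0.968, against 5 of 545 probes (0.917%), which were Ccr3, Gem, Il2, Il3 and Timp3, named after their values were seen. With the replicate number as a block edgeR called 2 probes, and 46 with the block without the stimulated Mettl3 KO library of replicate 3; DESeq2 called 23, and edgeR fits without libraries 0 to 37. The stimulated library of replicate 1 labelled c-Kit KO was the highest of the 6 for Birc5, Ccnb2 and 2810417H13Rik, and without it the stimulated genotype difference in edgeR was 0.45 for Birc5 and 0.41 for 2810417H13Rik, above 0 in place of below, and -0.17 for Ccnb2. The other 5 stimulated counts of Birc5 and of Ccnb2 were not above background, so each genotype value after stimulation rests there on 1 count above background. Without that library no stimulated count of either gene was above background, so the size and sign of its genotype value are not measured. These intervals are wide: for Ccnb2 at rest they take in both a 2-fold lower and a 2-fold higher level.

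The difference between the genotypes in the response to stimulation was tested as an interaction. It was -0.54 (SE 1.03) for Birc5, -1.08 (SE 0.98) for Ccnb2, 0.27 (SE 0.64) for Cdc20 and -0.13 (SE 0.83) for 2810417H13Rik on the log2 scale, with an adjusted p of 0.993 for each in edgeR's test. Stimulated counts of Birc5 and Ccnb2 were not above background in any Mettl3 KO library, and background subtraction moved the values to -2.85 and -3.96, without a call. Called were 0 of the 4 and 0 of 545 probes (0%) by edgeR, with 22 at an unadjusted p under 0.05, 2 by DESeq2 and 0 by limma. The falls that were called in Mettl3 KO and not in c-Kit KO are therefore not shown to differ between the genotypes.

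**Figure D2:**
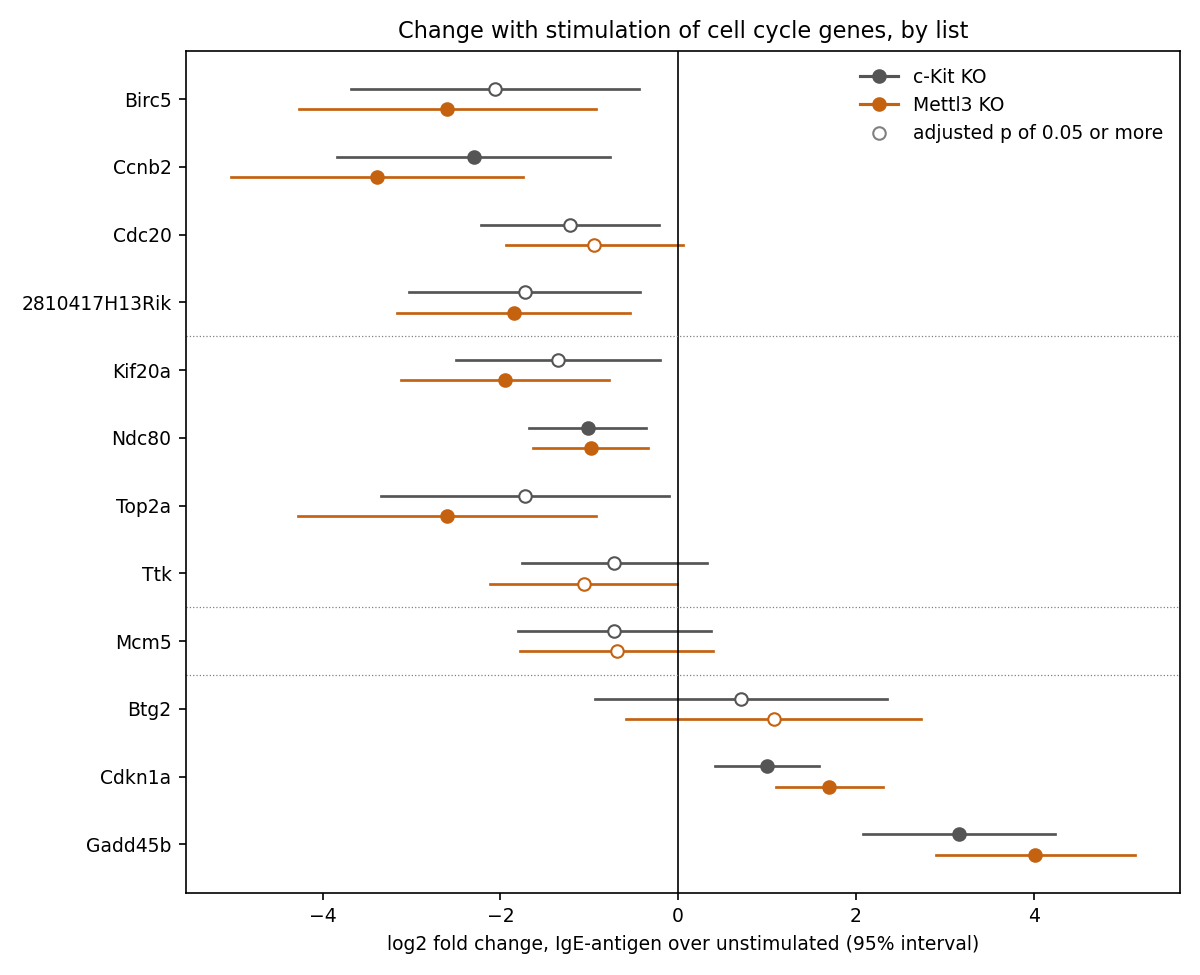
Log2 fold change of stimulated over unstimulated libraries, with its 95% interval, in c-Kit KO (grey) and Mettl3 KO (orange) for the 4 genes, 4 other mitosis genes, the replication gene Mcm5 and 3 inhibitors of proliferation, separated by dotted lines; filled symbols had an adjusted p under 0.05. Values for the 4 genes lie between -3.39 and -0.95, and those for Gadd45b, the highest, are 3.16 and 4.02.

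Cultures differed widely in the libraries labelled c-Kit KO. In that group at rest, the highest library exceeded the lowest by at least 5.93-fold for Birc5, whose lowest count was not above background, and by 5.65-fold for Ccnb2, 4.79-fold for 2810417H13Rik and 3.91-fold for Cdc20. Among the unstimulated Mettl3 KO libraries the same ratios were 1.97, 2.29, 1.80 and 1.53. The geometric mean of the 4 genes' normalized counts was 220, 43.1 and 206 in replicates 1, 2 and 3 of the unstimulated c-Kit KO libraries and 102, 131 and 192 in those of Mettl3 KO. After stimulation it was 78.8, 21.6 and 28.5 in c-Kit KO and 29.1, 27.3 and 33.9 in Mettl3 KO, with counts not above background taken as read. The unstimulated c-Kit KO library of replicate 2 thus stood apart from the other 5 unstimulated libraries, below the stimulated c-Kit KO library of replicate 1. The unstimulated c-Kit KO library of replicate 2 had 625496 endogenous counts, close to the median of 625323 over the 12 libraries, and all 8 mast cell markers above background.

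A test of the replicate numbers in a fit that also held the 4 groups called 62 of 545 probes (11.4%), among them 0 of the 4 genes. Its F was 2.75 for Birc5, 2.65 for Ccnb2, 2.20 for 2810417H13Rik and 1.55 for Cdc20, with adjusted p of 0.258, 0.265, 0.318 and 0.416 in edgeR's quasi-likelihood test. The estimated log2 difference of replicate 2 from replicate 1 was -1.33 (SE 0.59) for Birc5, -1.26 (SE 0.56) for Ccnb2, -0.78 (SE 0.47) for 2810417H13Rik and -0.62 (SE 0.36) for Cdc20. The replicate numbers did not mark the same order in both genotypes, since replicate 2 was the lowest of the unstimulated c-Kit KO libraries for all 4 genes and replicate 1 was the lowest of the unstimulated Mettl3 KO libraries for Birc5, Ccnb2 and 2810417H13Rik. Without all 4 libraries of replicate 2, 0 of the 4 genes were called in c-Kit KO, with adjusted p in edgeR of 0.0812 for Birc5, 0.0895 for Ccnb2, 0.0778 for Cdc20 and 0.0783 for 2810417H13Rik, while each log2 fold change was further from 0 than with all libraries. Without both c-Kit KO libraries of replicate 2 but with those of Mettl3 KO, a choice made after the values were seen, the c-Kit KO change with stimulation was called by edgeR for all 4 genes, among 25 probes called lower. It was -2.10 for Birc5, -1.57 for Cdc20 and -1.82 for 2810417H13Rik, with adjusted p of 0.0383, 0.0361 and 0.0320 in edgeR's test, whose ranges over 24 alternatives were 0.0166 to 0.384, 0.0147 to 0.461 and 0.0155 to 0.371. For Ccnb2 it was -2.42 with an adjusted p of 0.0406 in edgeR, in a range of 0.00455 to 0.279. The culture left out was the lowest of c-Kit KO at rest for all 4 genes. The omission thus depends on the outcome, and these calls are no test of the fall. Cd34, the only early progenitor marker above background, also varied with the culture. The sum of the 4 progenitor markers, nearly all Cd34, was 4676, 2060 and 5660 in replicates 1, 2 and 3 of unstimulated c-Kit KO. It was 3308, 2610 and 6016 in those of unstimulated Mettl3 KO. After stimulation it was 4655, 3156 and 3582 in c-Kit KO and 2758, 2290 and 3689 in Mettl3 KO. Whether Cd34 came from progenitors or from the mast cells was not tested, nor was its part in the culture differences of the 4 genes.

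**Figure D3:**
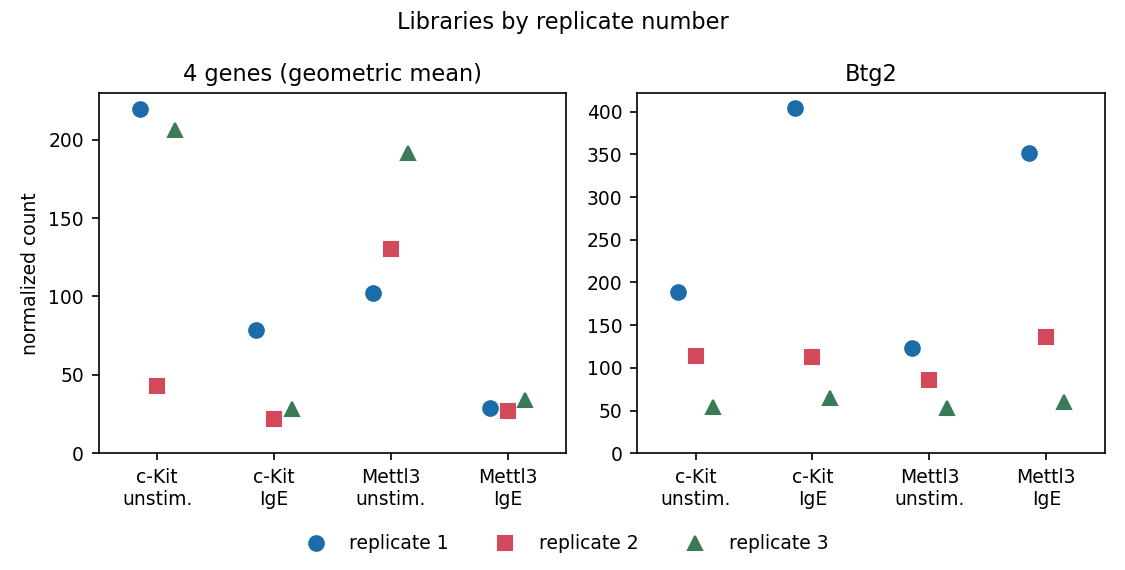
Normalized counts in the 12 libraries, by group and replicate number, for the geometric mean of the 4 genes and for Btg2; each vertical axis starts at 0. Replicate 3 lies lowest for Btg2 in each group, at 53.8, 64.5, 52.9 and 60.4, while the 4 genes' lowest unstimulated library is replicate 2 of c-Kit KO, at 43.1.

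The panel holds other genes of the cell cycle, which were listed by function. Of 4 other mitosis genes, edgeR called 1 lower in c-Kit KO and 3 in Mettl3 KO, where 6.97% and 10.8% of all 545 probes were called lower. Their median log2 fold changes were -1.19 and -1.51, against -0.05 and 0.02 over all probes tested. Ndc80, whose stimulated counts were not above background in any library, was the 1 called in c-Kit KO and 1 of the 3 in Mettl3 KO. These counts and medians include it. Top2a, the topoisomerase that untangles chromosomes before they separate, had unstimulated counts of 623, 115 and 661 in c-Kit KO and 357, 410 and 695 in Mettl3 KO, and stimulated counts of 271, 37.3 and 116 and of 73.0, 39.4 and 127. Like the 4 genes it was low at rest in the c-Kit KO library of replicate 2, and its log2 fold change was -1.72 (SE 0.74, adjusted p of 0.124) in c-Kit KO and -2.60 (SE 0.77, adjusted p of 0.0229) in Mettl3 KO by edgeR. Kif20a, a kinesin of cytokinesis, was at -1.35 (SE 0.53, adjusted p of 0.0959) and -1.95 (SE 0.54, adjusted p of 0.0162) in the same test with counts as read. It was above background in every unstimulated library, but stimulated in 2 of 3 libraries of c-Kit KO and 1 of 3 of Mettl3 KO. With the replicate number as a block both were called in c-Kit KO too, with edgeR's adjusted p of 0.0315 for Top2a and 0.0470 for Kif20a. Without the stimulated Mettl3 KO library of replicate 3 the block gave 0.0433 and 0.0488 as adjusted p in edgeR, and the fits without the block had ranges of 0.0426 to 0.309 and 0.0221 to 0.279 over the 6 fits without a library. In Mettl3 KO each of these calls was lost without the unstimulated library of replicate 3, the stimulated library of replicate 1 or the stimulated library of replicate 2, where the highest adjusted p in edgeR was 0.0903 for Top2a and 0.0666 for Kif20a. The kinetochore gene Ndc80 was called lower in both genotypes, at -1.02 (SE 0.30) and -0.99 (SE 0.30) with counts as read. It was above background in 2 of 12 libraries and in 0 of 3 stimulated libraries of each genotype. It met the filter only through its unstimulated libraries, so the size of its fall was not measured. Each of its calls held in 2 of 6 edgeR fits without a library. The checkpoint kinase gene Ttk was not called, at -0.72 and -1.06, though in Mettl3 KO its adjusted p in edgeR with the replicate block was 0.0209, or 0.0365 without the stimulated Mettl3 KO library of replicate 3, against 0.110 to 0.300 without each library in turn.

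Mcm5 encodes a subunit of the replicative helicase. Its normalized counts were 253, 79.2 and 373 unstimulated and 172, 89.8 and 167 stimulated in c-Kit KO, and 170, 190 and 321 unstimulated and 105, 124 and 192 stimulated in Mettl3 KO. Like the 4 genes, it was low at rest in the c-Kit KO library of replicate 2, and the unstimulated and stimulated groups overlapped in both genotypes. It was not called by edgeR, at -0.72 (SE 0.50, adjusted p of 0.363) in c-Kit KO and -0.69 (SE 0.50, adjusted p of 0.333) in Mettl3 KO.

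Of 3 inhibitors of proliferation, 2 were called higher in each genotype, where 66 of 545 probes (12.1%) in c-Kit KO and 117 (21.5%) in Mettl3 KO were called higher. Gadd45b, a stress-induced inhibitor of cell cycle kinases, rose from 45.2, 43.6 and 64.6 to 263, 594 and 523 in c-Kit KO and from 36.5, 86.7 and 49.5 to 1025, 1336 and 430 in Mettl3 KO. All stimulated libraries lay above all unstimulated libraries, with log2 fold changes of 3.16 (SE 0.49) and 4.02 (SE 0.51). Cdkn1a, which encodes the CDK inhibitor p21, rose from 1157, 970 and 1026 to 2330, 1246 and 2721 in c-Kit KO and from 949, 955 and 980 to 3549, 2984 and 2843 in Mettl3 KO. Its log2 fold changes were 1.00 (SE 0.27) and 1.70 (SE 0.27) with adjusted p of 0.0257 and 0.000737 in edgeR's test. The smallest rise of Cdkn1a, 1.28-fold, was in replicate 2 of c-Kit KO, the culture where Gadd45b had its largest rise of that genotype, 13.6-fold. The c-Kit KO call for Cdkn1a was kept in edgeR without the stimulated library of replicate 2 and lost without any of the other 5 libraries, with a highest adjusted p of 0.112. The antiproliferative gene Btg2 was not called with stimulation, at 0.71 (SE 0.75) and 1.07 (SE 0.76), but was called in the test of the replicate numbers with an adjusted p of 0.00325 in edgeR, a call that held without each library in turn. Its counts were 189, 114 and 53.8 and then 404, 113 and 64.5 in c-Kit KO, and 123, 85.3 and 52.9 and then 352, 137 and 60.4 in Mettl3 KO, so that replicate 1 was the highest and replicate 3 the lowest in each group.

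Birc2 and Birc3, which share a protein domain with Birc5 but act on death receptor and NF-kB signalling, were not called, with values from -0.73 to -0.57 in the 2 genotypes, and neither was the growth regulator Myc, at 0.31 and 0.24. With the replicate block edgeR gave Birc3 in Mettl3 KO an adjusted p of 0.0352, or 0.0528 without the stimulated Mettl3 KO library of replicate 3, against 0.105 to 0.245 without each library in turn. Without its stimulated library of replicate 2, edgeR gave Birc3 in c-Kit KO an adjusted p of 0.0490, in a range up to 0.533. Of 2 histone genes, Hist1h1c was not called, though the block without that stimulated Mettl3 KO library gave it an adjusted p of 0.0297 in Mettl3 KO in edgeR, against 0.0596 with it. Hist2h2aa1 was called lower in Mettl3 KO, at -1.05 (SE 0.29), a call kept in 4 of 6 edgeR fits without a library, with a highest adjusted p of 0.0733. In c-Kit KO it was not called, at -0.71 (SE 0.29), except without the stimulated library of replicate 1, with an adjusted p of 0.0405 in a range up to 0.340 in edgeR. Kit was called lower in c-Kit KO, at -1.10 (SE 0.32), a call kept in 2 of 6 edgeR fits without a library, with a highest adjusted p of 0.120. In Mettl3 KO Kit was at -0.81 (SE 0.32) with an adjusted p of 0.0694 in edgeR, 0.0433 with the replicate block and 0.0806 with the block without the same library. The interaction of genotype and stimulation had an adjusted p of 0.993 in edgeR for both Hist2h2aa1 and Kit.

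The activation genes Il13, Tnf and Nfil3 rose in both genotypes and show the response of each culture beside the 4 genes. Il13 rose from 56.2, 53.9 and 92.4 to 1583, 298 and 2378 in replicates 1, 2 and 3 of c-Kit KO and from 74.1, 211 and 87.6 to 11154, 9363 and 2463 in Mettl3 KO. Nfil3 rose by 3.03 (SE 0.34) and 3.41 (SE 0.34) and Tnf by 3.10 (SE 0.99) and 6.17 (SE 1.13) on the log2 scale, with Tnf in c-Kit KO near the threshold at an adjusted p of 0.0473 in edgeR, a call kept in 1 of 6 fits without a library. Stimulated Nfil3 was at 523, 528 and 904 in c-Kit KO and 853, 1208 and 925 in Mettl3 KO. Stimulated Tnf was at 901, 162 and 235 in c-Kit KO and 8114, 3382 and 324 in Mettl3 KO. Its lowest Mettl3 KO count was in replicate 3, the library numbered differently in the sheet.

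Outside the lists, the probes whose log2(normalized count + 20) followed the mean of the 4 genes most closely over the 12 libraries were Cnn2, Id3, Aoah, Alox5 and Rab3d, with Pearson's r of 0.94, 0.93, 0.92, 0.92 and 0.92. Among the listed genes Kif20a had r of 0.98 and Top2a of 0.96. The 5 probes were picked by that likeness, over libraries that share the stimulation that separates them.

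In RefSeq's GRCm38.p6 annotation Birc5 spans chr11:117849237-117855743 on the plus strand, Ccnb2 chr9:70407689-70421554 on the minus strand, Cdc20 chr4:118432901-118437343 on the minus strand and 2810417H13Rik, as Pclaf, chr9:65890323-65903551 on the plus strand. The 100 bases before each annotated start are shown, with capitals for motifs known from cell cycle promoters. They are CCAAT, the letters bound by NF-Y, which read ATTGG on the other strand; TTTGAA, the cell cycle homology region; and GGGCGG, a GC box. An E2F-type TTTCCCGC was searched too. The sequences lie at chr11:117849137-117849236, chr9:70421555-70421654, chr4:118437344-118437443 and chr9:65890223-65890322.
Birc5: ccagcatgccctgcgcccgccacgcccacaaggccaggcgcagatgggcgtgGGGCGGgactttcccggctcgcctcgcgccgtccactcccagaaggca
Ccnb2: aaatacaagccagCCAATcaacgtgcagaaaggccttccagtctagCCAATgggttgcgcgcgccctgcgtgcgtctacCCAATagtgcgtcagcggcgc
Cdc20: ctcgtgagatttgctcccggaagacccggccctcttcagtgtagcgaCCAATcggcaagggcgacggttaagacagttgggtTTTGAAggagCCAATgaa
2810417H13Rik: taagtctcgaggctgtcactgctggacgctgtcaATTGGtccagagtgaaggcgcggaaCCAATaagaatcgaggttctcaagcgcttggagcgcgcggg

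All 4 genes matched RefSeq's promoter table, whose windows run from 250 bases before to 50 after the annotated start, and motifs were counted on both strands of the whole window. CCAAT was found in 3 of the 4 genes, at -87, -54 and -21 from the start in Ccnb2, at -53 and -8 in Cdc20, and at -66 (reverse strand) and -41 in 2810417H13Rik, and in 37.4% of all 32851 windows. TTTGAA was found in 2 of the 4, at -167 and 5 in Ccnb2 and at -18 in Cdc20, and in 17.9% of windows. GGGCGG was found in 3 of the 4, at -193 (reverse strand) and -48 in Birc5, at 20 in Ccnb2 and at -197 (reverse strand) in Cdc20, and in 35.7% of windows. TTTCCCGC was found in 1 of the 4, on the reverse strand across the start of 2810417H13Rik, and in 1.07% of windows. Of the other mitosis genes and Mcm5, 4 had a window (Ndc80, Top2a, Ttk and Mcm5), of which 3 held CCAAT, 3 TTTGAA, 3 GGGCGG and 0 TTTCCCGC; Kif20a had none in the table. These are matches of letters only.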

How the data were processed

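The authors hybridized 40 ng of total RNA per sample to the nCounter panel and deposited raw barcode counts for 768 probes, 734 endogenous, 20 housekeeping, 8 negative and 6 positive controls. Each of 12 columns of counts matched 1 sample title; columns of average, lowest, highest and percent variation were not used. Endogenous probes with at least 20 counts in at least 3 libraries (545) were fitted in edgeR 4.0.16 (R 4.3.3) with glmQLFit and glmQLFTest, a model of 4 groups and housekeeping library sizes, with Benjamini-Hochberg adjustment over all 545. Robust estimation of the dispersion was switched on after the design had been set, because it gave the number of called probes known from earlier results of these data; the fit without it is among the alternatives. The members and lists were chosen with earlier results of these data known. Some listed items are not reported here. The 5 pattern neighbours had the highest Pearson r. The detection limit and the bounds were added after the values were seen. Alternatives were TMM, other housekeeping and control scaling, other filters, background subtraction or a floor, DESeq2 1.42.0, limma 3.58.1, the methods' t-test (both with 1 added before log2), only the groups compared, the replicate block and omissions of libraries.

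Replicate numbers come from the sample titles and were tested by F in a model of group plus number. Over 545 probes, deviations from group means correlated above 0.1 in all 18 pairs of libraries with the same number and different groups (mean r = 0.37, range 0.16 to 0.61), against 1 of 36 pairs with different numbers (mean r = -0.18). The stimulated Mettl3 KO library of replicate 3, numbered differently in a sheet, had r of 0.28 to 0.51 with the libraries of replicate 3 in the other groups and below 0 with the other 6. Deviations from a group mean sum to 0 within the group. Values of r below 0 between different numbers thus largely follow from those above 0 between the same numbers, and are no separate evidence. The numbers were taken to pair the cultures because of the r between libraries with the same number. Values with the block are given for listed genes whose call it changes, with those of the block without the stimulated Mettl3 KO library of replicate 3 where the block counts towards a call. Promoters are those of RefSeq for GRCm38.p6, matched through the probes' transcripts. Figures were drawn with matplotlib 3.10.9 in Python 3.11.15.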

Additional observations from a re-analysis of the deposited data

Results flagged for a closer look

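Cdkn1a, the gene of the CDK inhibitor p21, was lower in Mettl3 KO than in c-Kit KO in 3 of 3 replicate numbers at rest and higher in 3 of 3 after stimulation, a shift of 0.77 in the mean log2 ratio of the genotypes, and was picked out because all pairs moved in opposite directions in the 2 states. The groups overlapped at rest. In edgeR's test of the interaction of genotype and stimulation the value was 0.70 (SE 0.38) with an adjusted p of 0.993, so the difference was not called.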

How the results depend on the processing

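The direction of the change with stimulation was the same for the 4 genes in all 192 alternative fitted values of the 2 genotypes, but 23 lost and 14 gained an adjusted p under 0.05. Positive control scaling, counted among them, cancels under housekeeping scaling and repeats the same values. Several calls turned on single libraries, and the cause was not tested. In c-Kit KO, DESeq2 called Birc5 at -2.06, Cdc20 at -1.22 and 2810417H13Rik at -1.72. Ccnb2 lost its call there with background subtraction (-2.82), the methods' t-test (-2.33) and a fit of only those groups (-2.30), and 2810417H13Rik in Mettl3 KO with background subtraction (-2.59) and that t-test (-1.85). With the replicate block, which paired cultures by number, Birc5 (-2.03) and 2810417H13Rik (-1.65) were called in c-Kit KO, where 157 probes were called in place of 104; without the stimulated Mettl3 KO library of replicate 3 the block gave 161 and Birc5 at -2.05, and 2810417H13Rik at -1.66 was not called (adjusted p = 0.0522). The block changed no other stimulation call of the 4 genes. The t-test called 49 and 68 probes with stimulation in place of 104 and 176. Without robust estimation, an alternative chosen after the data were seen, edgeR called 103 and 178, with the same calls for the 4 genes.

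None of the 4 genes was called by genotype, interaction or replicate number in any alternative, and 35 of 192 genotype values and 8 of 112 interaction values changed sign. At rest, limma and the t-test gave 0.27 for Birc5, 0.010 for Ccnb2, 0.0028 for Cdc20 and 0.21 for 2810417H13Rik, and the replicate block 0.27, 0.041 and 0.13 for Birc5, Ccnb2 and 2810417H13Rik, or 0.26, 0.039 and 0.12 without the stimulated Mettl3 KO library of replicate 3. After stimulation background subtraction moved the genotype value to -2.93 for Birc5 and -4.19 for Ccnb2, and the interaction to -2.85 and -3.96, and Cdc20 was at -0.10 with TMM and -0.13 with DESeq2. Probes called by genotype after stimulation numbered 5, but 23 by DESeq2, 11 with counts under 20 set to 20, 2 with the block, 46 with the block without that library, and 0 with background subtraction, the t-test or only the groups compared. The interaction had 2 by DESeq2 and 3 with the block without that library, and the replicate numbers 129 by DESeq2 in place of 62.

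Leaving out libraries or replicate numbers, among them both c-Kit KO libraries of replicate 2 as added after the data were seen, moved the c-Kit KO change between -3.14 and -1.60 for Birc5, -3.46 and -1.73 for Ccnb2, -1.61 and -0.70 for Cdc20 and -2.32 and -1.32 for 2810417H13Rik. In Mettl3 KO the ranges were -2.85 to -2.36 for Birc5, -3.63 to -2.97 for Ccnb2, -1.29 to -0.53 for Cdc20 and -2.15 to -1.60 for 2810417H13Rik. Genotype at rest ran from -0.60 to 0.59 for Birc5, -0.69 to 0.39 for Ccnb2, -0.59 to 0.15 for Cdc20 and -0.49 to 0.40 for 2810417H13Rik, and after stimulation from -1.14 to 0.50 for Birc5, -1.79 to -0.17 for Ccnb2, -0.16 to 0.33 for Cdc20 and -0.58 to 0.65 for 2810417H13Rik. The upper ends after stimulation for Birc5 and Ccnb2 came from fits without the stimulated c-Kit KO library of replicate 1. Those fits held no stimulated count of either gene above background. The interaction ran from -0.997 to 0.54 for Birc5, -1.48 to 0.072 for Ccnb2, -0.069 to 0.67 for Cdc20 and -0.58 to 0.47 for 2810417H13Rik. Its upper ends for Birc5 and Ccnb2, and their c-Kit KO changes of -3.14 and -3.46, also came from leaving out the stimulated c-Kit KO library of replicate 1. No stimulated Mettl3 KO count of Birc5 or Ccnb2 was above background in any fit. The sizes of these Birc5 and Ccnb2 values were therefore not measured. Called probes ran from 32 to 106 with stimulation in c-Kit KO, 70 to 178 in Mettl3 KO, 0 to 37 by genotype after stimulation, 0 to 5 for the interaction and 14 to 63 for the replicate numbers. The 5 pattern neighbours were the same 5 probes with a pseudocount of 1 and with TMM.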
